A study of Mus musculus with 18 samples.

Results

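Collagen type I is the main fibrous protein of the stroma around mammary tumours, and the comparison described here asked how 4T1 cells carrying an empty vector changed their transcripts when they grew on it. 4T1 is a mouse mammary carcinoma cell line. The members are 6 libraries of the 18 in the series, taken by their labels: 3 from empty vector (EV) cells in collagen type I-coated dishes and 3 from the same stable line in uncoated tissue culture plastic. Both groups had received an empty lentiviral vector and puromycin selection, were kept in RPMI with foetal calf serum and antibiotics, and were harvested before confluence. A second stable line with a lentiviral vector expressing Wisp1, grown on plastic (3 libraries) and on collagen (3), and 3 libraries of untreated parental 4T1 cells, given fresh RPMI for 24 h, serve as reference points. Polyadenylated RNA was sequenced with a stranded kit.

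Cells bind collagen through integrins, which pair an alpha with a beta chain and signal to the cytoskeleton through focal adhesions, and through the discoidin domain receptors Ddr1 and Ddr2, which are receptor tyrosine kinases. Secreted and membrane-bound matrix metalloproteinases cut collagen and other matrix proteins. Adhesion and cell tension also set the activity of YAP and TAZ, transcriptional coactivators whose best known targets include Ctgf, Cyr61 and Ankrd1.

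The design sets limits to all values given here. Every EV library on plastic carries 1 sample code and every EV library on collagen another, so the coating and whatever else differed between the code series cannot be told apart. The 3 libraries of a group are cultures of 1 stable line. The p-values measure the spread between cultures within a group, pooled over the EV and Wisp1 lines, and not a spread between independent lines. In bulk RNA, moreover, a change in the share of cells that use a gene and a change of RNA per cell cannot be told apart.

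The EV libraries held 41761010 to 94401699 counts over genes, and libraries of 1 group correlated at r = 0.9953 to 0.9974 across genes. The leading principal component of the 12 libraries of the 2 stable lines, with 49.7% of the variance over 13953 genes, separated collagen from plastic without overlap. Mitochondrially encoded genes took 0.567% to 0.598% of counts on plastic and 0.855% to 0.993% on collagen, and 1.17% to 1.36% in parental cells. The epithelial identity of the line was present in all 6 libraries: Krt8, Krt18, Epcam and Cdh1 were counted in each, and the 12 epithelial markers summed to 3600 to 4040 library-size scaled counts (CPM) on plastic and 4150 to 4550 CPM on collagen. That sum follows its most abundant members: Krt8 averaged 1021 CPM on plastic and 1340 CPM on collagen, and Krt18 978 and 1220 CPM. Of the 12 markers 3 were called higher and 4 lower, with a median log2 change of -0.0412. The median turned positive without plastic replicate 2 (0.0039) or collagen replicate 3 (0.0267). Markers of other cell types were low. The 13 fibroblast markers summed to 30.4 to 51.7 CPM on plastic and 33.3 to 38.1 CPM on collagen, the 12 endothelial markers to 5.3 to 6.02 and 4.5 to 5.66 CPM, and the 12 muscle and adipocyte markers to at most 0.328 CPM. Of the 5 fibroblast markers tested Pdgfra rose by 0.58 (adjusted p = 0.00343), and Col1a2 and Col3a1 fell by 1.43 and 1.56 (adjusted p = 0.000987 and 0.0188). Postn and Col1a1 were not called, and Lum, Thy1 and Dpt were at 0 in all 6 libraries. The Col3a1 call was lost without plastic replicate 1 (adjusted p = 0.0508), plastic replicate 2 (0.0704), collagen replicate 2 (0.0509) or collagen replicate 3 (0.078). These markers were named after their values were seen, apart from Pdgfra, Col1a1 and Col1a2. The 18 leukocyte markers summed to 16 to 18.7 CPM on plastic and 21.2 to 28.2 CPM on collagen, so that the groups did not overlap.

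Of 13953 genes tested, 5095 (36.5%) were called at a Benjamini-Hochberg adjusted p under 0.05 in edgeR's quasi-likelihood test, 2678 higher on collagen (19.2%) and 2417 lower (17.3%). Most of these changes were small: the median fold of a called gene was 1.23, and 376 genes (2.69%) were called with at least 2-fold change, 210 higher and 166 lower. The groups of 3 did not overlap for 96.6% of the called genes, against 46.6% of all genes tested. Without adjustment 6360 genes had a p under 0.05, where 698 would have if no gene differed. Counts of list members given here are read against these shares of all genes. When the spread was estimated over all 18 libraries instead of the 12 of the stable lines, 1629 genes were called.

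**Figure D1:**
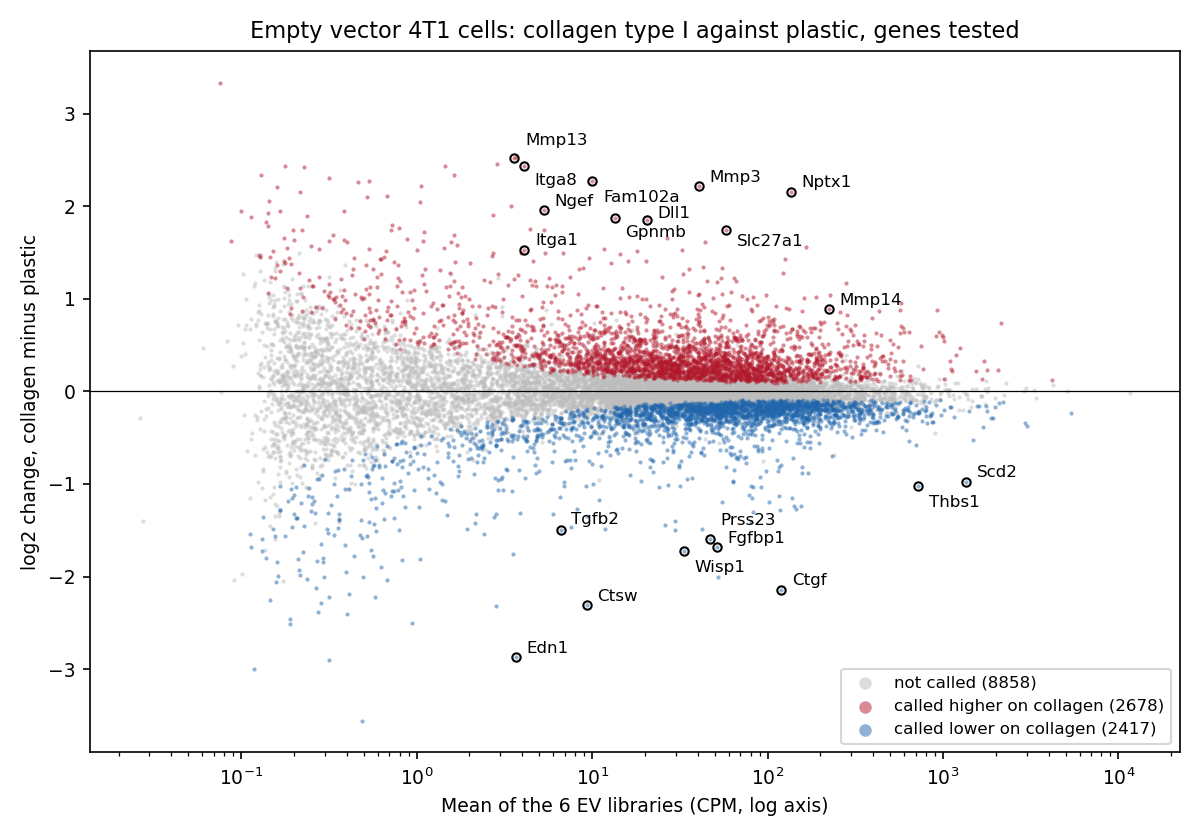
The log2 change between collagen and plastic (vertical axis, positive where collagen is higher) is plotted against the mean level over the 6 EV libraries in CPM (log axis), 1 point a gene. The 2678 genes called higher and 2417 called lower lie mostly within 1 log2 unit of 0, while the circled genes Edn1 and Ctgf lie below that band and Mmp13, Mmp3 and Nptx1 above it.

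Among called genes with a mean of at least 5 CPM and no overlap between groups, the largest rise belonged to Fam102a, which was counted at 3.2, 3.52 and 3.62 CPM on plastic and 16.3, 17.7 and 15.9 CPM on collagen (log2 change 2.27, SE 0.08, adjusted p = 1.58e-09). Mmp3, a metalloproteinase of broad matrix specificity also called stromelysin, was counted at 16.8, 15.6 and 11.1 CPM on plastic and 90.1, 59.2 and 52.4 CPM on collagen (log2 change 2.22, SE 0.27, adjusted p = 0.000244). Nptx1, a secreted pentraxin best known from synapses, was counted at 53.6, 51.4 and 44.2 CPM on plastic and 262, 205 and 197 CPM on collagen (log2 change 2.16, SE 0.16, adjusted p = 5.11e-06). In each of these genes the lowest collagen library lay at more than 3 times the highest plastic library. Log2 changes of 1.5 to 1.96 were found for Ngef, an exchange factor for small GTPases, Gpnmb, a transmembrane glycoprotein of lysosomes and melanosomes, Dll1, Slc27a1, a fatty acid transporter, Mmp10, Dmpk, a serine/threonine kinase, Padi1, a peptidylarginine deiminase, St3gal4, a sialyltransferase, Nbl1, a secreted BMP antagonist, Clip4, Apcdd1, a membrane inhibitor of Wnt signalling, and Prnd. St3gal4 had the tightest values of these, 83.9, 84.7 and 84.8 CPM on plastic and 237, 255 and 252 CPM on collagen (log2 change 1.56, SE 0.06, adjusted p = 2.81e-09).

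At the other end stood Ctsw, a cathepsin best known from cytotoxic lymphocytes, counted at 10.4, 13.1 and 23.2 CPM on plastic and 2.65, 3.15 and 3.52 CPM on collagen (log2 change -2.31, SE 0.36, adjusted p = 0.00082). Ctgf, a CCN protein secreted into the matrix, was counted at 166, 167 and 255 CPM on plastic and 42.4, 46.9 and 43.3 CPM on collagen (log2 change -2.14, SE 0.22, adjusted p = 6.98e-05). All 3 collagen libraries were below all 3 plastic libraries in both, and the collagen libraries lay closer together than the plastic ones. A further 12 of the 15 largest falls had log2 changes of -1.72 to -1.34: Wisp1, Fgfbp1, a carrier of fibroblast growth factors, the serine protease Prss23, the ligand Tgfb2, Trib3, Gadd45a and Gadd45b, which respond to stress, the complement protease Masp1, Moxd1, the transcriptional repressor Bhlhe40, the cystine transporter Slc7a11, and the stress factor Atf3. A larger fall than any of these was found for Edn1, the vasoconstrictor peptide endothelin, whose mean was under 5 CPM: 5.9, 6.81 and 6.64 CPM on plastic and 0.781, 0.927 and 0.918 CPM on collagen (log2 change -2.87, SE 0.14, adjusted p = 1.75e-08).

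**Figure D2:**
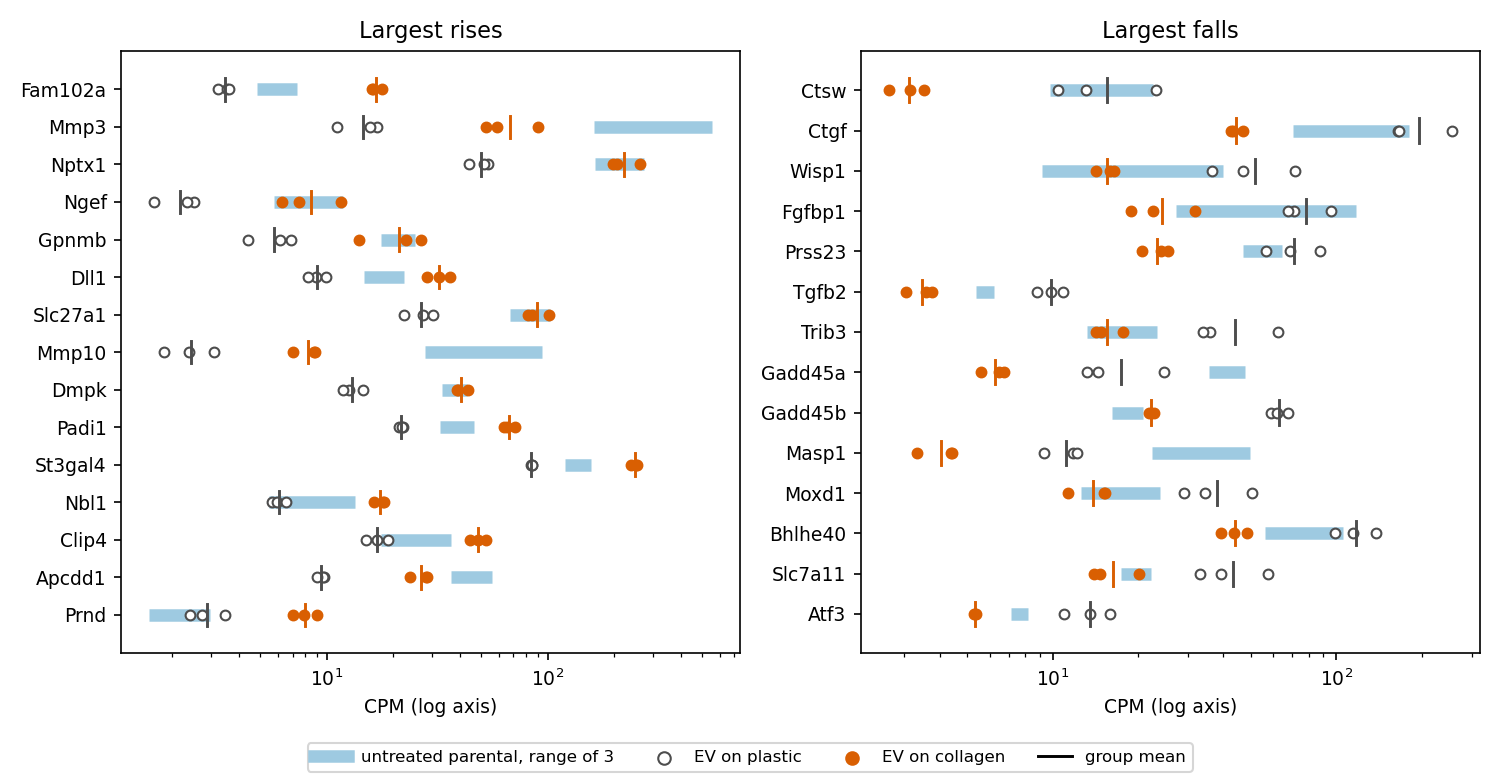
CPM of each EV library (log axis) for the 15 largest rises and 15 largest falls, 1 fall not being shown, among called genes with a mean of at least 5 CPM, with open circles for plastic, filled circles for collagen, short lines for group means and a bar for the range of the 3 untreated parental libraries. Open and filled circles do not overlap in any row, as the choice of genes required, while the parental bars lie on either side, for example far above both groups in Mmp3 and overlapping the collagen range in Nptx1.

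Genes of cholesterol synthesis fell as a group on collagen. Of 24 measured genes of cholesterol synthesis and uptake, 22 fell and none rose, with a list median of -0.818 log2 against 0.00112 over all genes. Cyp51, the lanosterol demethylase, was counted at 168, 175 and 158 CPM on plastic and 76, 58.7 and 70.3 CPM on collagen (log2 change -1.28, SE 0.14, adjusted p = 5.13e-05). Hmgcs1, which makes hydroxymethylglutaryl-CoA, was counted at 199.7, 216 and 178 CPM on plastic and 89.4, 74.5 and 87.7 CPM on collagen (log2 change -1.23, SE 0.13, adjusted p = 3.11e-05). Insig1, the sterol-responsive protein that retains the SREBP precursors in the endoplasmic reticulum, was counted at 135, 163 and 127 CPM on plastic and 77.4, 48.9 and 58.8 CPM on collagen (log2 change -1.20, SE 0.27, adjusted p = 0.00671). The groups did not overlap in any of these, and every collagen library was under the lowest plastic library. Sqle, squalene epoxidase, named after its values were seen, fell by 0.82 on the log2 scale (adjusted p = 3.18e-06). Srebf2, the transcription factor that drives this pathway, also named after its values were seen, fell by 0.29 (adjusted p = 0.00148). Of the 2 members that were not called, the sterol reductase Dhcr7, named after its values were seen, had a log2 change of 0.03 (adjusted p = 0.739).

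Fatty acid genes shared the direction in part: 11 of 18 fell and 1 rose, with a median of -0.351. Scd1, a stearoyl-CoA desaturase, was counted at 114, 132 and 106 CPM on plastic and 55.2, 40 and 46.7 CPM on collagen (log2 change -1.30, SE 0.19, adjusted p = 0.000585), and its paralog Scd2 at 1716, 1892 and 1799.6 CPM on plastic and 1039.8, 755 and 947 CPM on collagen (log2 change -0.97, SE 0.16, adjusted p = 0.00107). Neither gene had overlapping groups. Lpin1, a phosphatidate phosphatase, fell by 0.81 (adjusted p = 0.00443). Agpat2, an acyltransferase of phospholipid synthesis, was the member that rose (log2 change 0.26, adjusted p = 0.00219). Fasn, fatty acid synthase, and Srebf1, both named after their values were seen, were not called, with log2 changes of 0.07 (adjusted p = 0.489) and 0.14 (adjusted p = 0.212).

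Genes of sterol synthesis are known to be driven by SREBP proteins bound at sterol regulatory elements, often beside a CCAAT box that binds NF-Y. The 250 bases upstream of the start site of Hmgcs1 and Insig1 are shown because these carry both short motifs among the members that fell most. Sequences are from RefSeq on GRCm38.p6, 5′ to 3′ on the gene's strand, and capitals mark CACNCCAC, the core of the sterol regulatory element, and CCAAT, each on either strand.
Hmgcs1 (chr13:119690101-119690350, + strand): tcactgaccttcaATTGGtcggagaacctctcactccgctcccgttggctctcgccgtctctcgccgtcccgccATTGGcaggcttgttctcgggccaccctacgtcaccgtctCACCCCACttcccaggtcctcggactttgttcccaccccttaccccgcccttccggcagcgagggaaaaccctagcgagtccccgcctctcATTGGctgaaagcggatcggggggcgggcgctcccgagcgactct
Insig1 (chr5:28071162-28071411, + strand): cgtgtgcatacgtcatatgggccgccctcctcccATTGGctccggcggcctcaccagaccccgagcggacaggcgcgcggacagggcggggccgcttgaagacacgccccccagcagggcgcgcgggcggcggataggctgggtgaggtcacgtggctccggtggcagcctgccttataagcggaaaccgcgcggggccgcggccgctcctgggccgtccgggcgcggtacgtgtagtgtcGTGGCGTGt
Over all 9985 tested genes with a promoter window (71.6% of those tested), 6.43% hold CACNCCAC and 41% hold CCAAT in those bases. Windows were found for 17 of the 24 list members (70.8%), under the minimum of 80% set for such comparisons, so a share for the list is void. The windows shown were picked for their motifs, and most members with a window lack CACNCCAC.

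The genes of the ATF4 and amino acid response fell too. ATF4 is the transcription factor made when amino acids run short or protein folding is disturbed, and its targets include transporters, synthetic enzymes and tRNA synthetases. Of 28 measured members, 24 fell and none rose, with a median of -0.477. Slc7a11, the cystine/glutamate exchanger, was counted at 39.1, 57.5 and 33.1 CPM on plastic and 14.7, 14 and 20.2 CPM on collagen (log2 change -1.4, SE 0.26, adjusted p = 0.00242). Trib3, a pseudokinase induced by ATF4, was counted at 35.7, 62.4 and 33.9 CPM on plastic and 14.8, 14.2 and 17.7 CPM on collagen (log2 change -1.49, SE 0.24, adjusted p = 0.000905). Plastic replicate 2 was the highest library for both genes, and all collagen libraries lay under the lowest plastic library. Asns, asparagine synthetase, and Psat1, an enzyme of serine synthesis, were named after their values were seen. Asns was at 269, 343 and 260.2 CPM on plastic and 166, 170.2 and 197 CPM on collagen (log2 change -0.70, SE 0.10, adjusted p = 0.000182) and Psat1 at 724, 819.8 and 723 CPM on plastic and 481, 490.1 and 581 CPM on collagen (log2 change -0.54, SE 0.07, adjusted p = 5e-05). Atf4 itself, also named after its values were seen, fell by 0.43 (adjusted p = 0.000357). The 4 members not called, likewise named after their values were seen, were Cebpb, Pycr1, Nupr1 and Slc7a1, with log2 changes of -0.48, -0.18, -0.08 and -0.07. Ddit4, an inhibitor of mTORC1, fell by 1.04 (adjusted p = 0.0275), a call that was lost without plastic replicate 2 (adjusted p = 0.103), collagen replicate 2 (0.0829) or collagen replicate 3 (0.0966), and with no filter (0.0602).

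ATF4 binds composite sites whose core reads TGATGNAA. The 250 bases upstream of Slc7a11 and Asns are shown because each holds that core, in capitals on either strand.
Slc7a11 (chr3:50443614-50443863, - strand): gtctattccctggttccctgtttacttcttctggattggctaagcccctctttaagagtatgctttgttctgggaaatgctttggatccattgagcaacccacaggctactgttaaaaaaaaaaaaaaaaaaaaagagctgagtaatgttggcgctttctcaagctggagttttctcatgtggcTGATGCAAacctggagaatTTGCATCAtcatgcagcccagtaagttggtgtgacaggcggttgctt
Asns (chr6:7693210-7693459, - strand): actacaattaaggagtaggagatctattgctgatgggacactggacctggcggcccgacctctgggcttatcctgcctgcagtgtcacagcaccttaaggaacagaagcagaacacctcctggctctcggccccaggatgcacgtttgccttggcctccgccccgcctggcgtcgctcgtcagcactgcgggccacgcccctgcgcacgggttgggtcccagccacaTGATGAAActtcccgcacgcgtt
The core was found in 8 of the 25 list members with a window (32%), against 2.36% of all tested genes with one. The list gathers genes of the ATF4 response, called or not, so this share describes the list and not the change on collagen. Of the windows shown, that of Slc7a11 holds it at 2 places, starting 66 and 47 bases before the start site, and that of Asns at 1 place, 23 bases before it.

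Other stress lists moved less. Of 24 genes of the unfolded protein response and folding in the endoplasmic reticulum, 10 fell and 3 rose, with a median of -0.0996. Herpud1, of the degradation machinery of the endoplasmic reticulum, fell by 0.45 (adjusted p = 0.000688) and the chaperone Hspa5 by 0.28 (adjusted p = 0.00152), while the sensor Ern1 rose by 0.28 (adjusted p = 0.0017). Among 18 heat shock genes, 9 fell and 3 rose. Hspd1 and Hspe1, the mitochondrial chaperonin and its partner, fell by 0.52 and 0.40 (adjusted p = 5.5e-05 and 3.69e-05), and Hspa1a, which has a near-identical copy so that its count is uncertain, rose by 0.40. Among 22 p53 targets 6 fell and 2 rose (36.4% called, near the 36.5% of all genes). The death receptor Fas fell by 0.98 (adjusted p = 1.53e-05), and Cdkn1a, the cell cycle inhibitor p21, rose by 0.66 (adjusted p = 0.000349). Of 28 NRF2 and glutathione genes 9 fell and 2 rose (39.3% called, near the 36.5% of all genes). Me1, malic enzyme, had a log2 change of -0.43 (adjusted p = 0.00023).

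Lysosomal genes went the other way. Of 35 measured, 26 rose and 2 fell, with a median of 0.307. Naglu, which degrades heparan sulphate, was counted at 7.57, 9.53 and 8.21 CPM on plastic and 16.1, 15 and 13 CPM on collagen (log2 change 0.80, SE 0.12, adjusted p = 0.000231). Hexa, a hexosaminidase subunit, was counted at 5.54, 5.3 and 4.94 CPM on plastic and 9.1, 8.54 and 8.45 CPM on collagen (log2 change 0.73, SE 0.09, adjusted p = 3.05e-05). Grn, progranulin, which was named after its values were seen, was counted at 106, 129 and 109 CPM on plastic and 199.97, 189 and 169.8 CPM on collagen (log2 change 0.70, SE 0.09, adjusted p = 6.94e-05). Collagen libraries were above plastic libraries without overlap in all 3. The cathepsins Ctsd and Ctsl, also named after their values were seen, rose by 0.51 and 0.54 (adjusted p = 0.000411 and 0.000113). The 2 genes that fell were the cysteine proteases Lgmn, legumain, by 0.71 (adjusted p = 1.5e-06), and Ctsc, named after its values were seen, by 0.47 (adjusted p = 5.87e-06). The member with the largest rise, Ctss, is a cathepsin of antigen-presenting cells and stood at a low level, 1.15, 0.815 and 1.07 CPM on plastic and 2.11, 2.28 and 1.72 CPM on collagen (log2 change 1.03, SE 0.23, adjusted p = 0.00327). It was listed at no more than 0.0238 CPM in parental cells, and its log2 change in the Wisp1 line was -0.05 (adjusted p = 0.873).

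Beside that rise stand the leukocyte markers. Emr1 and Tyrobp, markers of macrophages and myeloid cells, were called higher of the 13 leukocyte markers tested: Emr1 was counted at 0.358, 0.302 and 0.364 CPM on plastic and 1.03, 1.03 and 0.688 CPM on collagen (log2 change 1.43, SE 0.35, adjusted p = 0.00585), and Tyrobp at 0.215, 0.171 and 0.364 CPM on plastic and 0.581, 0.547 and 0.448 CPM on collagen (log2 change 1.09, SE 0.33, adjusted p = 0.0178). The Tyrobp call was lost without plastic replicate 1 (adjusted p = 0.0545), plastic replicate 2 (0.108) or collagen replicate 2 (0.0541), and with all 18 libraries in the fit (0.107). The other 11, Ptprc, Csf1r, Cd68 and Lyz2 among them, were not called, with log2 changes from 0.21 for Cd14 to 0.93 for Fcer1g. The lymphocyte markers Cd3e, Cd3g and Cd79a and the dendritic marker Itgax were too low to test. All these markers were named after their values were seen. Their part in the lysosomal result was not tested.

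Many lysosomal genes share the E-box CACGTG upstream, which is the heart of the site bound by the factor TFEB. The 250 bases upstream of Naglu and Sgsh, a sulphamidase that also degrades heparan sulphate and was named after its values were seen (log2 change 0.57, adjusted p = 1.66e-05), are shown as examples, with that E-box in capitals. It also lies upstream of Lgmn, which fell, starting 49 bases before the start site.
Naglu (chr11:101069844-101070093, + strand): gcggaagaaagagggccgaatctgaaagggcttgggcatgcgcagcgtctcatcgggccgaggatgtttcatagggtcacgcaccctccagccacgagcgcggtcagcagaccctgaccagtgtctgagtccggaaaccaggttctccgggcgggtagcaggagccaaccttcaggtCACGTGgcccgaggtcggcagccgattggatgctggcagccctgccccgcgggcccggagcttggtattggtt
Sgsh (chr11:119355511-119355760, - strand): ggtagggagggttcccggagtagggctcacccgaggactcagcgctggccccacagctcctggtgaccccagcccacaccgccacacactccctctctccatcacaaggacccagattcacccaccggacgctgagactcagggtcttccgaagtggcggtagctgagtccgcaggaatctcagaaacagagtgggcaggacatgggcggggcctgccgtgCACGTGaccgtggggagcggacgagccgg
The E-box lies in 9.95% of all tested genes with a window. Windows were found for 27 of 35 list members (77.1%), again under 80%, so a share for the list is void. A match of letters is a description, and none of these windows was measured for binding here.

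**Figure D3:**
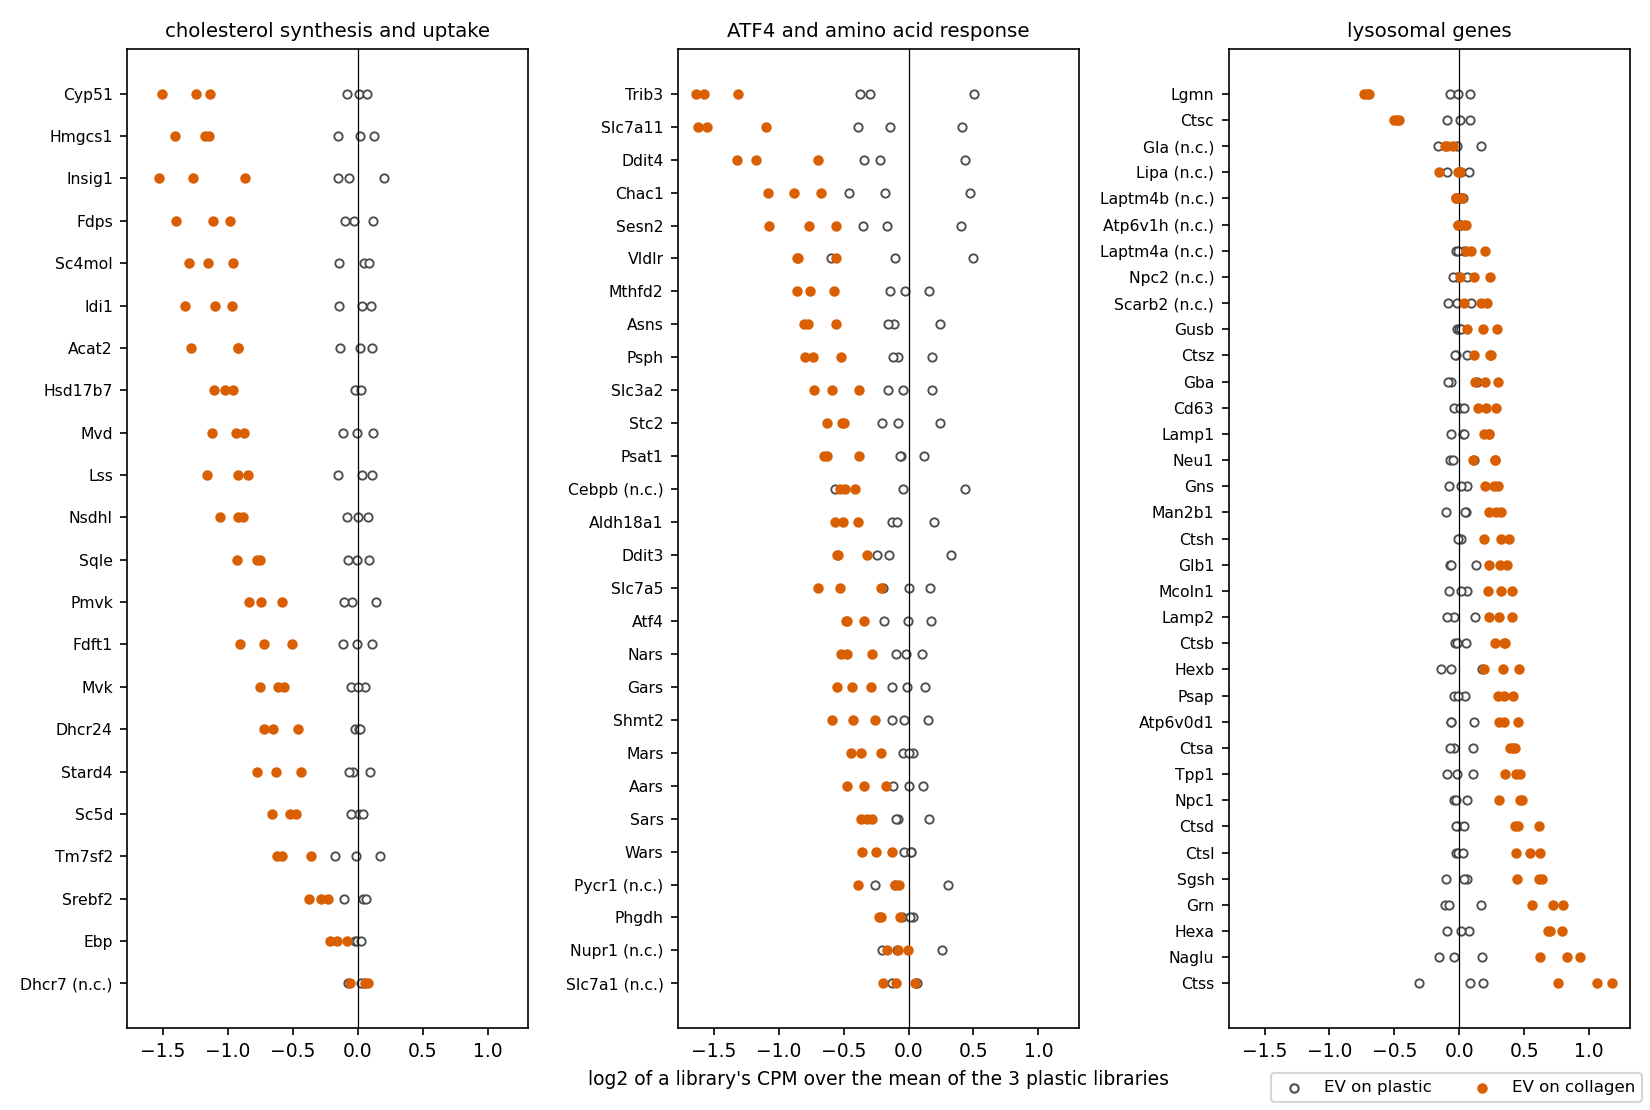
Each row is a gene and each point a library, placed at the log2 ratio of its CPM to the mean of the 3 plastic libraries, with open circles for plastic and filled circles for collagen, and "n.c." beside genes that were not called. Filled circles lie left of the open ones in the called cholesterol genes shown and 24 called ATF4 genes, with some rows overlapping, and right of them in 26 of the lysosomal genes.

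Mitochondrially encoded genes rose as a group: 11 of 15 rose and none fell, with a median of 0.627. mt-Cytb, cytochrome b, was counted at 657, 619 and 677 CPM on plastic and 1040.00, 1257 and 1298 CPM on collagen (log2 change 0.88, SE 0.11, adjusted p = 0.000107), and mt-Nd5, a subunit of respiratory complex I, at 395, 402 and 412 CPM on plastic and 628, 789.9 and 803 CPM on collagen (log2 change 0.88, SE 0.12, adjusted p = 0.000232). The collagen libraries were above the plastic libraries in both, and collagen replicate 1 was the lowest of its group. Of the 39 nuclear genes of the respiratory chain, 11 fell and 3 rose (35.9% called, near the 36.5% of all genes), with a median of -0.0327. Cox5a and Cycs, the carrier cytochrome c, fell by 0.32 and 0.32 (adjusted p = 0.00519 and 0.00419), and Cox6c rose by 0.26 (adjusted p = 0.000627). The mitochondrial share of counts can also move with RNA quality, and its part in these results was not tested. With mitochondrially encoded genes removed from the table, 5081 genes were called.

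Of the proteins that bind collagen, 5 of 10 measured rose and none fell (median 0.431). Itga1, the alpha chain of a collagen-binding integrin, was counted at 1.67, 2.46 and 2.14 CPM on plastic and 7.04, 5.78 and 5.6 CPM on collagen (log2 change 1.53, SE 0.17, adjusted p = 1.39e-05). Itga2, the alpha chain of the other main collagen-binding integrin, was counted at 116, 107 and 136 CPM on plastic and 156, 174 and 166 CPM on collagen (log2 change 0.48, SE 0.11, adjusted p = 0.0046). Ddr1 was counted at 42.2, 46.6 and 46.2 CPM on plastic and 59.6, 62.2 and 61.3 CPM on collagen (log2 change 0.45, SE 0.06, adjusted p = 0.000146). Groups did not overlap in these 3, and the remaining called members were the proteoglycan Sdc1 and the hyaluronan receptor Cd44, which rose by 0.46 and 0.42 (adjusted p = 0.000127 and 5.47e-05). Itgb1, the beta chain shared by the collagen-binding integrins, gave 1229 to 1465 CPM on plastic and 1262 to 1369 CPM on collagen, overlapping ranges (log2 change -0.01, SE 0.06, adjusted p = 0.941). Ddr2 had a log2 change of -0.13 (adjusted p = 0.0572), Mrc2, the collagen uptake receptor, 0.45 (adjusted p = 0.364), Itga10 0.42 (adjusted p = 0.244) and Sdc4, named after its values were seen, 0.18 (adjusted p = 0.135). Ddr2 passed the threshold without plastic replicate 3 (adjusted p = 0.0365), in DESeq2 (0.0401), with upper quartile scaling (0.0408) and in the fit with a replicate block (0.0337). Itga11 was too low to test.

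Among 13 other integrin subunits 7 rose and 1 fell. Itga8, which pairs with Itgb1 to bind fibronectin and nephronectin, was counted at 1.15, 1.38 and 1.26 CPM on plastic and 8.42, 7.54 and 4.73 CPM on collagen (log2 change 2.43, SE 0.28, adjusted p = 3.79e-05). Itgb4, the laminin-binding beta chain of hemidesmosomes, was counted at 105, 112 and 117 CPM on plastic and 212, 199 and 195 CPM on collagen (log2 change 0.87, SE 0.07, adjusted p = 1.32e-06). Its partner Itga6, named after its values were seen, was counted at 334, 315 and 329 CPM on plastic and 493, 502 and 509 CPM on collagen (log2 change 0.63, SE 0.04, adjusted p = 2.07e-07). All collagen libraries were higher than all plastic libraries in these. The subunit that fell was Itgb3, a chain of the vitronectin receptor, counted at 4.16, 5.11 and 5.59 CPM on plastic and 2.81, 3 and 2.45 CPM on collagen (log2 change -0.85, SE 0.20, adjusted p = 0.0041). Of 24 focal adhesion and adhesion signalling genes 10 rose and 2 fell. Tns4, a tensin of epithelial adhesions, was at 165 to 181 CPM on plastic and 369.9 to 409 CPM on collagen (log2 change 1.17, SE 0.06, adjusted p = 3.15e-08). The adaptor Git1 rose by 0.59 and the actin polymerisation factor Vasp by 0.50 (adjusted p = 2.56e-06 and 1.68e-06), and Fermt1, kindlin-1, fell by 0.46 (adjusted p = 0.00956).

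Matrix-degrading enzymes held some of the largest changes: of 30 proteases and inhibitors 12 rose and 7 fell, with a median of 0.168. Mmp13, a collagenase that cuts fibrillar collagen, was counted at 1.08, 1.2 and 0.9 CPM on plastic and 7.77, 6.36 and 4.37 CPM on collagen (log2 change 2.53, SE 0.30, adjusted p = 4.93e-05). Mmp14, the membrane-anchored collagenase, was counted at 139, 165 and 167 CPM on plastic and 263, 302 and 304 CPM on collagen (log2 change 0.89, SE 0.08, adjusted p = 2.26e-06). Mmp10, a relative of Mmp3, was counted at 1.84, 2.38 and 3.1 CPM on plastic and 8.84, 8.76 and 7.04 CPM on collagen (log2 change 1.74, SE 0.16, adjusted p = 2.79e-06). Groups were apart in all 3. In the plasminogen system, Plaur, the urokinase receptor, and Plau, urokinase itself, rose by 1.28 and 0.89 (adjusted p = 2.31e-09 and 5.47e-05). The metalloproteinase inhibitor Timp2 rose by 0.95 (adjusted p = 1.75e-08), and Plaur, Plau and Timp2 were named after their values were seen. Mmp9 was not called, at 72 to 143 CPM on plastic and 88.6 to 110.1 CPM on collagen (log2 change 0.07, SE 0.38, adjusted p = 0.906), and Timp1 had a log2 change of -0.14 (adjusted p = 0.0785), which passed with upper quartile scaling (0.0417), with the 6 EV libraries alone (0.0438) and with a replicate block (0.0361).

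Genes for the matrix itself moved in both directions. Among 19 collagen chains 7 rose and 4 fell. Col17a1, a transmembrane collagen of hemidesmosomes, rose by 1.39, Col6a1 by 0.83 and Col18a1, a basement membrane chain, by 0.61 (adjusted p = 3.99e-06, 0.000118 and 0.00135). Col12a1, which decorates collagen fibrils, and Col7a1, the anchoring fibril chain named after its values were seen, fell by 1.27 and 1.02 (adjusted p = 0.000524 and 0.00404). Both chains of type I collagen were at low levels. Col1a1 was at 0.311 to 0.727 CPM on plastic and 0.744 to 1.11 CPM on collagen and was not called (log2 change 0.61, SE 0.35, adjusted p = 0.193), and Col1a2 was at 0.573 to 1.17 CPM on plastic and 0.262 to 0.345 CPM on collagen and fell (log2 change -1.43, SE 0.27, adjusted p = 0.000987). Among 25 other matrix proteins 9 rose and 3 fell. Lama3, a chain of the basement membrane laminin that Itga6 and Itgb4 bind, was counted at 61.5, 57.3 and 85.3 CPM on plastic and 195, 179.9 and 172 CPM on collagen (log2 change 1.43, SE 0.16, adjusted p = 8.75e-05), and Lamb3, its partner, named after its values were seen, rose by 0.73 (adjusted p = 0.000655). Thbs1, thrombospondin, was counted at 782, 873 and 1254 CPM on plastic and 434, 465 and 525 CPM on collagen and fell (log2 change -1.02, SE 0.17, adjusted p = 0.00108). Fn1, fibronectin, gave 1769 to 2171 CPM on plastic and 1252 to 1642 CPM on collagen and fell by 0.39 (adjusted p = 0.0269), a call lost without plastic replicate 3 (0.0973), collagen replicate 1 (0.101) or collagen replicate 3 (0.0701), with no filter (0.0947) and with all 18 libraries (0.0578). Of 21 genes of collagen processing and crosslinking 7 rose, Adamts14, a procollagen protease, by 0.81 (adjusted p = 3.37e-06), and 4 fell, P4ha2, a collagen prolyl hydroxylase, by 0.64 (adjusted p = 0.00708). Lox was too low to test.

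Of 22 YAP and TAZ targets 10 fell and 5 rose, with a median of -0.227. Cyr61, a matricellular CCN protein, was counted at 197, 159.6 and 302 CPM on plastic and 81.5, 107 and 89.1 CPM on collagen (log2 change -1.24, SE 0.26, adjusted p = 0.00523). Ankrd1, a nuclear ankyrin repeat protein, was counted at 215, 210.4 and 236 CPM on plastic and 123, 122 and 112 CPM on collagen (log2 change -0.88, SE 0.08, adjusted p = 6.09e-06). Both were lower in all collagen libraries, and with Ctgf, Tgfb2 and Gadd45b they were the 5 largest falls of the list. Myof, myoferlin, was at 758 to 819 CPM on plastic and 1134 to 1217 CPM on collagen and rose (log2 change 0.61, SE 0.04, adjusted p = 2.61e-07). In the CCN family, Ctgf, Cyr61 and Wisp1 fell, Nov rose by 1.62 at a low level, 0.536 to 0.908 CPM on plastic and 1.84 to 2.83 CPM on collagen (adjusted p = 0.000445), and Wisp2, named after its values were seen, was not called. Wisp1 was counted at 36.5, 47 and 71.4 CPM on plastic and 14.3, 15.9 and 16.4 CPM on collagen (log2 change -1.72, SE 0.20, adjusted p = 0.000131).

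TGF-beta and SMAD targets, a list that shares Ctgf and Tgfb2 with the YAP and TAZ list, had 9 falls and 5 rises among 22, with a median of -0.0323 that lay above 0 (0.0398) without plastic replicate 3. Besides Ctgf and Tgfb2, Bhlhe40 fell by 1.42 (adjusted p = 0.000419), and Tgfbi, a secreted matrix protein induced by TGF-beta, rose by 1.07 (adjusted p = 0.00107). The ligand genes moved apart: Tgfb2 was counted at 8.79, 9.9 and 10.8 CPM on plastic and 3.03, 3.57 and 3.75 CPM on collagen (log2 change -1.5, SE 0.10, adjusted p = 1.17e-07), and Tgfb1, named after its values were seen, at 27.3, 32.8 and 30.9 CPM on plastic and 47.8, 52.8 and 50.2 CPM on collagen (log2 change 0.73, SE 0.06, adjusted p = 1.06e-06). The feedback inhibitor Smad7, also named after its values were seen, had a log2 change of 0.17 (adjusted p = 0.315), and passed without plastic replicate 3 (0.00875). Of 10 BMP and ID genes 6 rose and none fell, with a median of 0.599. Id2, a dominant negative partner of helix-loop-helix factors, was counted at 35.4, 25.4 and 34.3 CPM on plastic and 66.2, 75 and 73.4 CPM on collagen (log2 change 1.19, SE 0.15, adjusted p = 0.000142), and Id4 rose by 0.83 (adjusted p = 0.00117). Among 22 actin and SRF targets 5 fell and 3 rose (36.4% called, near the 36.5% of all genes). Tpm1, tropomyosin, had a log2 change of -0.58 (adjusted p = 5.29e-05).

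**Figure D4:**
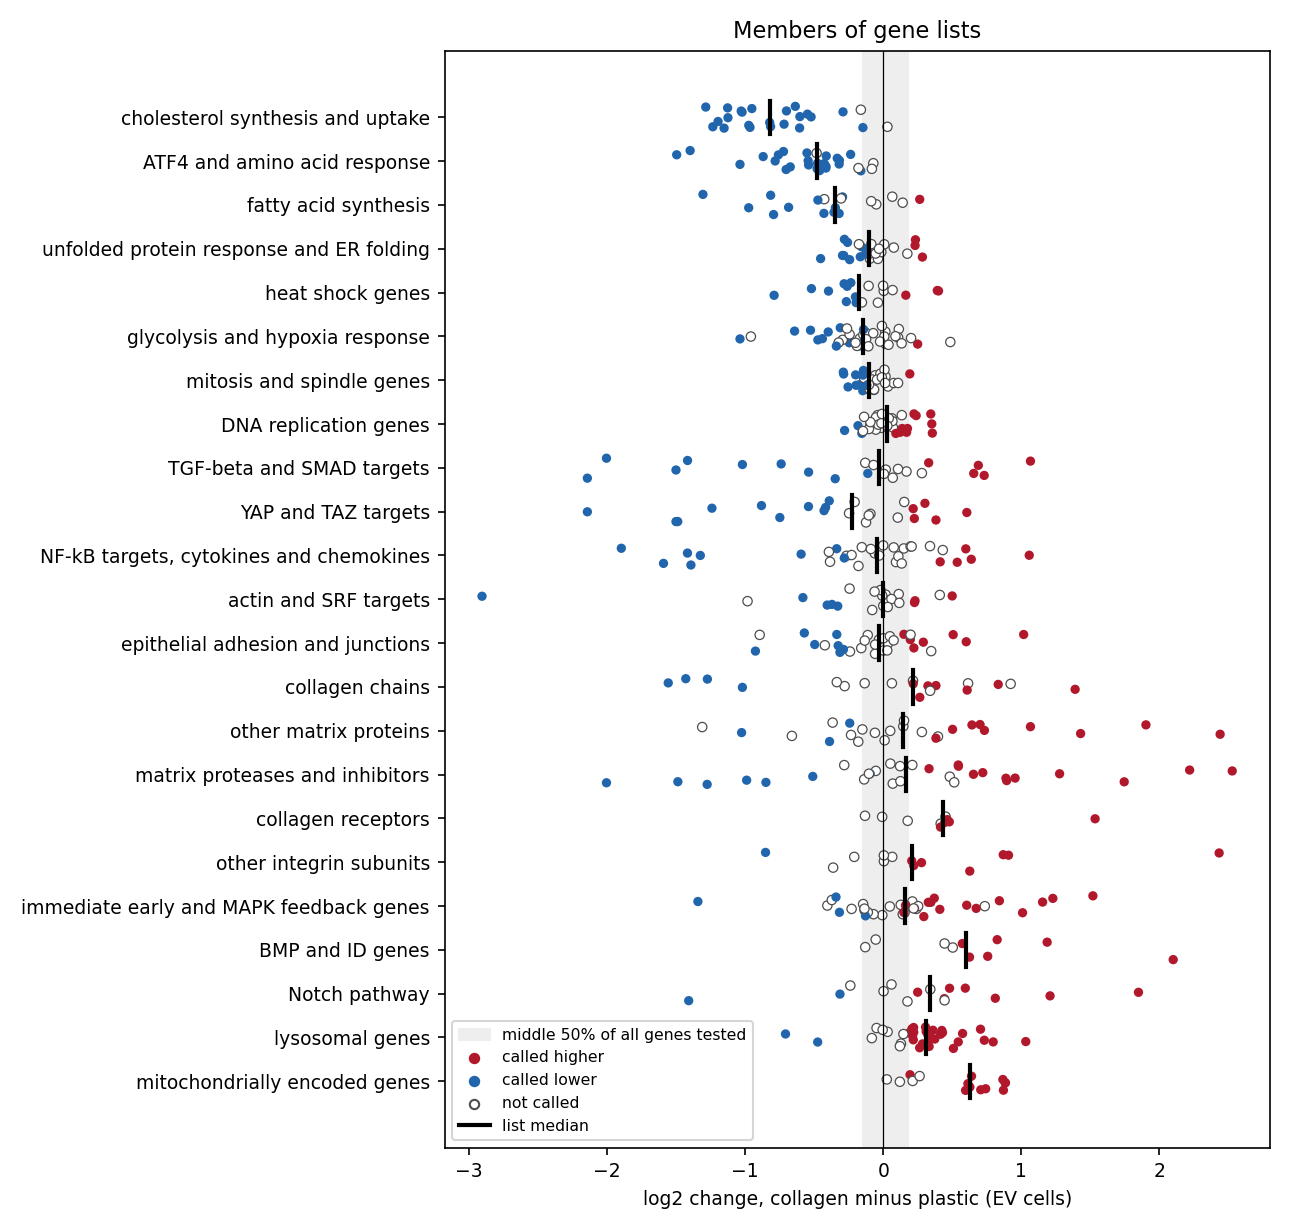
Log2 change between collagen and plastic in EV cells for the tested members of 23 gene lists, 1 point a gene, filled where called, with a black line at the list median and a grey band over the middle 50% of all genes tested (-0.145 to 0.183). The medians of the cholesterol (-0.818), ATF4 (-0.477) and fatty acid lists (-0.351) lie furthest left of the band. Those of the BMP and ID genes (0.599) and mitochondrially encoded genes (0.627) lie furthest right. The YAP and TAZ (-0.227) and heat shock medians (-0.175) also lie left of it. To its right also lie those of collagen receptors (0.431), Notch (0.341), lysosomal genes (0.307), collagen chains (0.217) and other integrins (0.206).

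Immediate early and MAPK feedback genes rose more often than they fell: of 38 tested 15 rose and 4 fell, with a median of 0.16. Fosl1, the AP-1 subunit Fra-1, was counted at 109.6, 103 and 111 CPM on plastic and 206, 217 and 225 CPM on collagen (log2 change 1.01, SE 0.06, adjusted p = 3.44e-08). Klf2, a zinc finger transcription factor, rose by 1.15 (adjusted p = 0.000119), and Spred3, Spry2 and Dusp6, which damp signalling to ERK, rose by 0.84, 0.67 and 0.60 (adjusted p = 5.13e-06, 2.93e-06 and 0.000313). Spry2 and Dusp6 were named after their values were seen. Atf3 was the largest of the 4 falls, counted at 11, 16 and 13.6 CPM on plastic and 5.32, 5.37 and 5.3 CPM on collagen (log2 change -1.34, SE 0.12, adjusted p = 2.9e-06).

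Among 15 Notch pathway genes 7 rose and 2 fell. Dll1, a Notch ligand, was counted at 8.93, 8.21 and 9.94 CPM on plastic and 36.2, 28.4 and 32.2 CPM on collagen (log2 change 1.85, SE 0.11, adjusted p = 5.91e-08). Dll4, a second ligand, was counted at 3.11, 2.73 and 2.24 CPM on plastic and 8.06, 5.7 and 4.87 CPM on collagen (log2 change 1.21, SE 0.26, adjusted p = 0.00316). Both ligands were apart between groups, and Lfng, a glycosyltransferase that modifies Notch, rose by 0.59, while the receptor Notch1 fell by 0.31 (adjusted p = 2e-05 and 0.00172). Of 13 Wnt targets 5 rose and none fell (38.5% called, near the 36.5% of all genes). The Wnt inhibitors Apcdd1 and Notum led these, Notum at 0.762 to 1.03 CPM on plastic and 2.22 to 2.56 CPM on collagen (log2 change 1.4, adjusted p = 0.000101). Of 29 growth factor ligands and receptors 10 rose and 5 fell. The ephrin Efna1 rose by 1.01, the receptor Fgfr2 by 0.72 and Igfbp4, a binding protein for insulin-like growth factors, by 0.69 (adjusted p = 1.39e-06, 6.34e-07 and 2.04e-08).

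Inflammatory and immune genes were mixed or mostly not called. Of 32 NF-kB targets, cytokines and chemokines 8 fell and 5 rose (40.6% called, near the 36.5% of all genes). Icam1, an adhesion molecule for leukocytes, fell by 1.42, Vcam1 by 0.59 and the cytokine Il1a by 1.32 (adjusted p = 1.74e-05, 2.52e-05 and 9.45e-05). The chemokine Cx3cl1 was counted at 34.3, 36.8 and 35.6 CPM on plastic and 75.7, 75.2 and 70.3 CPM on collagen and rose (log2 change 1.06, SE 0.06, adjusted p = 6.12e-08). Of 38 interferon-stimulated genes 7 fell and 1 rose (21.1% called, under the 36.5% of all genes), Oasl1 by -0.88 and Isg20 by 0.48 (adjusted p = 0.002 and 0.000255). Of 23 antigen presentation genes 3 rose and 1 fell, also a share under that of all genes.

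Genes of growth and division changed little in size. Mki67, the proliferation marker, was at 739 to 776 CPM on plastic and 691 to 812 CPM on collagen (log2 change 0.03, SE 0.07, adjusted p = 0.741). Of 30 mitosis and spindle genes 12 fell and 1 rose, Bub1b, Aurka and Bub1 by -0.29, -0.29 and -0.25 (adjusted p = 0.000128, 0.000152 and 0.00014). Of 35 DNA replication genes 10 rose and 3 fell (37.1% called, near the 36.5% of all genes). Gins3 and Tk1, thymidine kinase, rose by 0.36 and 0.35 (adjusted p = 0.000133 and 5.49e-05). Rrm2, a ribonucleotide reductase subunit, had a log2 change of -0.28 (adjusted p = 0.00652). None of the 15 replication-dependent histone genes tested was called, and 9 others were too low to test. The 24 listed summed to only 8.79 to 11.5 CPM on plastic and 10 to 10.9 CPM on collagen in this polyadenylated RNA. Their lack of calls is therefore not read as a result about replication. Of 38 glycolysis and hypoxia genes 12 fell and 1 rose (34.2% called, near the 36.5% of all genes). Car12, a carbonic anhydrase, and Hk1, a hexokinase, had log2 changes of -0.53 and 0.25 (adjusted p = 2.83e-05 and 0.00544). Ribosomal protein genes were called in 15.6% of 45 cases, 6 lower and 1 higher, with Rpl7, whose pseudogenes make its count uncertain, at -0.21 (adjusted p = 0.00173).

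Epithelial and mesenchymal genes did not move as blocks. Among 31 genes of epithelial adhesion and junctions 7 rose and 7 fell. Cdh1, E-cadherin, was counted at 496, 539 and 508 CPM on plastic and 404, 404 and 429.9 CPM on collagen (log2 change -0.31, SE 0.04, adjusted p = 7.83e-05). Cldn4, a tight junction claudin, was counted at 102, 132 and 124 CPM on plastic and 76, 59.6 and 52.4 CPM on collagen (log2 change -0.92, SE 0.21, adjusted p = 0.00756). Both were lower in every collagen library, while Pkp3, a desmosomal plakophilin, rose by 0.60 and Prom2 by 1.02 (adjusted p = 2.28e-06 and 0.000475). Epcam was at 112 to 135 CPM on plastic and 106 to 131 CPM on collagen (log2 change -0.11, SE 0.13, adjusted p = 0.538). Among 13 mesenchymal genes 4 rose, S100a4, a calcium-binding protein, by 0.65 (adjusted p = 0.00242), and 4 fell, Fstl1 by -1.0 (adjusted p = 0.00162). Vim, vimentin, was at 2067 to 2317 CPM on plastic and 2316 to 2380.5 CPM on collagen (log2 change 0.09, SE 0.06, adjusted p = 0.214). Of 10 keratins 2 rose and 3 fell: Krt8 of simple epithelia rose by 0.40, and Krt14 of basal cells and Krt80 fell by 0.60 and 0.72 (adjusted p = 0.00123, 0.00918 and 9.62e-06). Of 7 squamous genes 2 rose, the protease Klk10 by 0.85 and periplakin, Ppl, by 0.65 (adjusted p = 4.86e-07 and 0.0036). Of 12 luminal genes 1 rose, Gata3, by 0.29 (adjusted p = 9.4e-05), and 2 fell. The squamous and luminal lists had 28.6% and 25% of members called, under the 36.5% of all genes.

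The same substrates were compared in the Wisp1 line, which shares no library with the EV comparison but has the same split of sample codes between substrates. The fit took same-numbered cultures of both lines as independent, and whether they belong together was not tested. There 5641 genes (40.4%) were called. Both lines called 4084 genes in the same direction, 80.2% of the EV calls and 72.4% of the Wisp1 line calls, and 1 gene in opposite directions. Of all EV calls 98.9% had the same sign in the Wisp1 line. The cholesterol, ATF4 and lysosomal lists moved likewise. There 22 of 24 cholesterol genes fell and none rose, and 20 of 28 ATF4 genes fell and none rose. Of 35 lysosomal genes 27 rose and 2 fell. Some other lists moved less alike. Of 38 interferon-stimulated genes 6 rose and 4 fell there, beside 1 and 7 in EV cells. Of 23 antigen presentation genes 9 rose and none fell, beside 3 and 1. Of 10 BMP and ID genes 3 rose, beside 6. For single genes, the Wisp1 line's log2 changes were 2.25 for Fam102a, 2.28 for Mmp3, 1.95 for Itga1, -2.02 for Ctgf and -3.01 for Edn1. In EV cells these were 2.27, 2.22, 1.53, -2.14 and -2.87. A further 1010 EV calls were not called in the Wisp1 line. Among these were Itgb3 and Ddit4, at -0.29 and -0.36 there beside -0.85 and -1.04 in EV cells.

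A test of the difference between the 2 lines' substrate effects called 0 of 13953 genes (0%) with edgeR. In it 410 genes had an unadjusted p under 0.05, where 698 would have if no gene differed. With a replicate block in the fit 626 genes had such a p, and 0 were called. A lack of calls does not show that the effects were equal in both lines. limma-voom and DESeq2 each called 1, Wisp1 itself. Wisp1 fell by 1.72 on the log2 scale on collagen in EV cells and had a log2 change of 0.21 in the Wisp1 line (adjusted p = 0.375), whose transgene and endogenous reads share the symbol. In that line Wisp1 stood at 953 ± 96.8 CPM on plastic and 1099 ± 35.8 CPM on collagen (mean ± SD, n = 3). The difference of -1.94 (SE 0.27) had an adjusted p of 0.431 with edgeR, 0.0259 with limma-voom and 2.68e-06 with DESeq2. With edgeR it passed without EV plastic replicate 1 (0.00556) or 3 (0.000149), and over all alternatives its adjusted p ran from 2.68e-06 to 1.

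**Figure D5:**
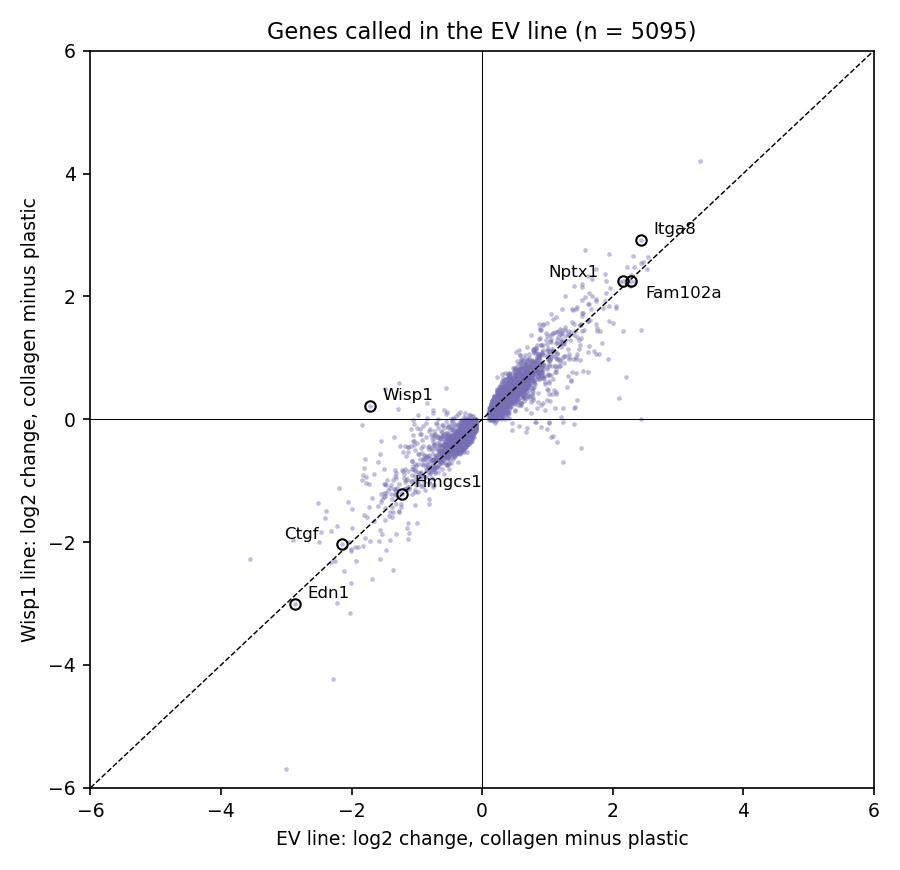
Each of the 5095 genes called in EV cells is placed by its log2 change between collagen and plastic in the EV line (horizontal) and in the Wisp1 line (vertical), with a dashed line where the changes are equal. Most points lie along the dashed line, and the labelled gene Wisp1 stands apart at -1.72 and 0.21.

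Parental cells, which were grown under their own sample code, without the vector and with fresh medium for 24 h, were not tested against the EV groups, and their levels are given as a description. Their mean lay nearer to the collagen mean than to the plastic mean for 66.1% of the 5095 called genes and for 53.7% of the 376 called by at least 2-fold. The lists differed in this respect. In none of the 22 called cholesterol genes was the parental mean nearer to collagen: Hmgcs1 was at 256 to 501 CPM and Cyp51 at 289.7 to 422 CPM, above both EV groups. In 23 of the 24 called ATF4 genes it was nearer to collagen, Slc7a11 being at 17.4 to 22.3 CPM and Asns, below both groups, at 62 to 69.8 CPM. It was nearer to collagen in 24 of 28 called lysosomal genes and in all 11 called mitochondrially encoded genes. Among single genes, Mmp3 was at 163 to 554 CPM and Mmp13 at 21.2 to 145 CPM, over both EV groups, and Ankrd1 was at 216 to 358 CPM, near or over the plastic values. Lama3 was at 18 to 21.2 CPM, under both.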

How the data were processed

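The authors deposited 1 table of raw gene counts per library, whole numbers for 34591 gene symbols with no normalization, and these counts were used as deposited. Per the submitters' processing notes, the build was mm9 and the tools included STAR, BWA, HTSeq, CASAVA, R 3.2.4 and limma. Their roles, settings and strand mode are not stated there, so reads of overlapping or antisense genes and of near-identical copies may be shared or lost. Per the file headers, rows of reads without a gene are listed apart and were left out. In the EV libraries reads with no feature made up 10.2% to 10.9%. Ambiguous reads made up 1.35% to 1.65% on plastic and 1.79% to 1.89% on collagen. Reads not aligned made up 2.56% to 3.05% on plastic and 1.84% to 2.55% on collagen. The ambiguous and not aligned shares thus did not overlap between the groups, and their part in the results was not tested.

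The 12 stable-line libraries were fitted together as 4 group means with edgeR 4.0.16 (R 4.3.3): TMM scaling, filterByExpr, robust quasi-likelihood tests, Benjamini-Hochberg adjustment over the 13953 genes kept, calls at an adjusted p under 0.05. The SE of a log2 change was taken as its size divided by the root of its F statistic. CPM were computed from the counts with TMM factors over all 18 libraries. The code was tested on simulated data. The comparison, the 45 gene lists, the 27 panel genes and the named-gene rule were chosen with earlier results of these data known. Named are the panel, the 15 largest rises and falls (called, mean of at least 5 CPM, groups apart, no clone names), and per list up to 3 called members with a mean of at least 1 CPM in the main direction and 1 in the other. A few genes that the rule or the lists hold are counted but not reported here by name. Genes outside this rule are marked as named after a look at the values. Alternatives were total count and upper quartile scaling, no or a stricter filter, other sets of libraries, thinning, limma-voom 3.58.1, DESeq2 1.42.0, a replicate block and leaving out each library; removing mitochondrially encoded genes was chosen after seeing the data. No GRCm38 coordinates were joined to the mm9 counts; RefSeq promoter windows were matched by symbol.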

Additional observations from a re-analysis of the deposited data

How the results depend on the processing

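Genes called between collagen and plastic numbered 4587 to 5690 under 10 alternatives of scaling, filter, tool, depth, library set and block, beside 5095 as reported, and 1629 with all 18 libraries in the fit; the cause of that drop was not tested. Leaving out 1 library gave 3849 to 4598 calls. Genes called by at least 2-fold fell from 376 to 196 with the stricter filter, which tests fewer low genes, and to 235 with all 18 libraries, and ran from 316 to 391 with 1 library left out. Genes higher made up 52.6% of calls as reported and 49.5% to 54% under the other settings. The test of the difference between lines called 0 genes as reported, 1 with limma-voom, 1 with DESeq2, and 0 to 1 with 1 library left out. No named gene that was called reversed its direction, while among those not called the sign of Itgb1, Mmp9, Mki67 and Fasn changed when 1 library was left out. With all 18 libraries 65 named genes lost their call, Ddr1, Itga2, Mmp13, Cdh1, Atf4, Itga6 and Srebf2 among them.

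With a replicate block in the fit, 5690 genes were called, 387 of them by at least 2-fold, and 0 for the difference between lines. The numbers were not taken to pair EV plastic with EV collagen cultures, since deviations of same-numbered libraries correlated at 0.123, -0.126 and 0.285. Plastic replicate 2 correlated best with collagen replicate 1 (0.262). Pairing of the EV and Wisp1 lines within a substrate was not tested. On the second principal component, collagen replicates 1 to 3 stood at 11.9, -4.47 and -11.9 (EV) and 17.4, -5.47 and -13.6 (Wisp1 line). Plastic replicates stood at 8.59, 14.8 and -9.35 (EV) and -2.08, 2.54 and -8.4 (Wisp1 line). Depth of 41761010 to 94401699 counts limits what can be said of genes near 1 CPM; thinned to the smallest library, 4710 genes were called.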
